A study of Drosophila melanogaster with 4 samples.

Results

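The transcripts described here are the 744 array rows whose FlyBase transcript number lies from FBtr0073600 to FBtr0074600, of 15634 rows in all. They were chosen by identifier number alone, without regard to level, and 744 of the 1001 numbers in that range are on the array. Levels were measured in 2 established cell lines of Drosophila melanogaster, Kc, a line derived from embryos, and Mbn2, a line derived from larval blood cells that carried the tumour mutation l(2)mbn. The cells were untreated. Kc cells grew in serum-free CCM3 and Mbn2 cells in M3+BPYE with 10% FCS, so line and medium cannot be told apart. Total RNA of each line was hybridised in a single colour (Cy3) to 2 NimbleGen arrays, called biological replicates in the series' design text. Since nothing shows that these were separate cultures, the p-values measure only the spread between these arrays.

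The numbers were proposed as a stretch of the middle and proximal X chromosome, and the files bear on that at a single point. Only 1 of the 744 identifiers, FBtr0074315, has gene symbols in RefSeq's table for the assembly Release 6 plus ISO1 MT, which places it on the X. The nearest identifiers with a symbol on either side of the block, FBtr0073063 (CG12016 and Dpm2) below and FBtr0074991 (Mettl5 and CG42374) above, both lie on 3L. Where the X numbers begin and end within the block could therefore not be checked, and the transcripts are called the block by number here. Many FlyBase transcript numbers run in map order along a chromosome arm, so neighbouring numbers often, but not always, stand for neighbouring genes. A number is not a position, and several numbers can belong to isoforms of the same gene.

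In flies the X chromosome is subject to dosage compensation: in males the MSL complex, with its roX RNAs, binds active X-linked genes and raises their transcription. Cultured fly lines are also known to carry gains and losses of chromosome segments. Neither the sex nor the karyotype of the lines is given in the labels, no copy number was measured, and none of 23 listed dosage compensation genes and blood cell markers could be identified among the array identifiers. Whether either feature had a part in the differences below was not tested.

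Values are log2 units after RMA (robust multi-array average), in which 1 unit is a 2-fold change. Over the block's transcripts, which are not independent of each other, the 2 Kc arrays correlated at r = 0.995, the 2 Mbn2 arrays at r = 0.997, and arrays of different lines at 0.914 to 0.919. Replicate arrays were typically 0.14 apart in Kc and 0.11 apart in Mbn2 (median absolute difference). No value was identical between any 2 arrays.

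As a whole the block differed between the lines about as often as the rest of the table. Of its 744 transcripts, 145 were higher in Mbn2 (19.5%) and 203 were higher in Kc (27.3%), at an adjusted p under 0.05 from limma over all rows. The shares over all 15634 rows were 21.2% and 27%, and both directions together made 46.8% in the block against 48.2% over all rows. Of the calls, 73 towards Mbn2 (9.81% of the block) and 75 towards Kc (10.1%) reached 2-fold, against 10.5% and 10.2% over all rows. The lean towards Kc depended on the centre. When differences were measured from the median of all bright rows, -0.11, the block held 177 calls towards Mbn2 (23.8%) and 174 towards Kc (23.4%). The shares over all rows turned too, to 25.3% and 22.9%. At 2-fold or more the block held 90 and 61. No share over all rows is given for these counts, so no lean is read from them. The arrays of the lines did not overlap for 544 transcripts (73.1%), against 72.4% over all rows.

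The median absolute difference of the calls was 1.01 towards Mbn2 and 0.79 towards Kc. Of the 145 calls towards Mbn2, 72 differed by under 2-fold, 49 by 2-fold to 4-fold, 13 by 4-fold to 8-fold, and 11 by at least 8-fold. Of the 203 towards Kc, the corresponding counts were 128, 45, 15 and 15. Over all rows, 437 of 3314 calls towards Mbn2 and 261 of 4216 towards Kc were at least 8-fold. These made 2.8% and 1.67% of the 15634 rows, a base that for the block's 11 and 15 is its 744 transcripts. The smallest difference called in the block was 0.32 in either direction.

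**Figure D1:**
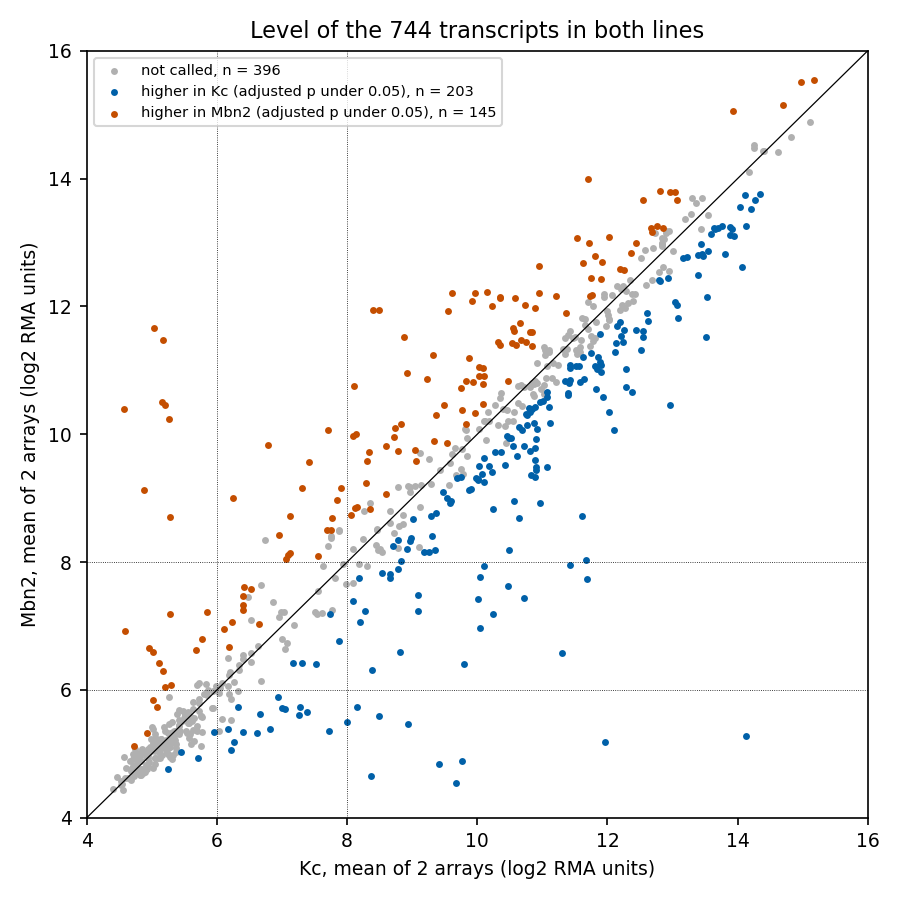
Mean log2 RMA level of each of the 744 transcripts in Kc (horizontal) and Mbn2 (vertical), coloured by limma call; the solid line marks equal levels and the dotted lines the limits of 6 and 8. Most transcripts lie near the line, 8 lie at upper left (under 6 in Kc, over 8 in Mbn2) and 10 at lower right.

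The block held slightly more well expressed transcripts than the table. In both lines 405 of its transcripts had a mean over 8 (54.4%, against 49.2% over all rows), and 187 had a mean under 6 (25.1%, against 29.3%). The limits of 6 and 8 were taken from an earlier look at these data. The files hold no background level, so a value under 6 shows only that a transcript was dim.

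The highest levels belonged to FBtr0074406, FBtr0073835, FBtr0074027 and FBtr0073792, none of which has a name here. FBtr0074406 read 15.19 and 15.15 in the Kc arrays and 15.59 and 15.50 in the Mbn2 arrays, a difference of 0.37. FBtr0073835 read 15.01 and 14.93 in Kc and 15.51 and 15.52 in Mbn2, a difference of 0.54 (standard error 0.10, limma adjusted p = 0.00673). For both, the Mbn2 arrays lay above the Kc arrays, but the call for FBtr0074406 (limma adjusted p = 0.0302) was lost when any 1 of the 4 arrays was left out, at 0.0711 to 0.151, with a replicate block (0.053) and without moderation of the variances (0.0605). FBtr0073792 was higher in Mbn2 by 0.46, and its adjusted p was 0.0767 without Mbn2 replicate 1 and 0.0502 without Mbn2 replicate 2. FBtr0074027 differed by -0.22 and did not pass the test (95% interval up to 0.11, limma adjusted p = 0.231).

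At the edges of the block, the first member, FBtr0073600, had a mean of 7.84 in Kc and 8.97 in Mbn2. The second, FBtr0073601, had means of 12.90 and 13.18. Just outside below, FBtr0073599 was at 5.54 and 6.37, and FBtr0073597 at 12.13 and 12.49. At the upper edge, FBtr0074596 was at 5.67 and 5.54 in the Kc arrays and 5.45 and 4.86 in the Mbn2 arrays, and FBtr0074597 at 11.42 and 11.09. Just outside above, FBtr0074601 was at 12.12 and 11.16, and FBtr0074602 at 9.11 and 9.13. The direction of the rows nearest the lower edge thus ran the same way on both sides of it.

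The single member with gene symbols was lower in Mbn2. FBtr0074315 is recorded as a transcript that carries reading frames of the neighbouring protein genes CG32573 and CG42512, and an array value cannot tell these frames apart. It read 7.37 and 7.66 in the Kc arrays and 6.54 and 6.29 in the Mbn2 arrays. The lines did not overlap, and the level was modest in both. The difference was -1.10 (standard error 0.15), or 2.15-fold higher in Kc (limma adjusted p = 0.00213), and the adjusted p was 0.0788 without moderation of the variances.

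Along the numbering the block was not uniform. It was divided into 10 stretches of 100 numbers, and in each the median difference was taken over transcripts with a mean over 9 in both lines, 340 in all. The stretch median ran from -0.54 to 0.42, and 5 of the 10 were below 0. The other 195 stretches of the table with at least 10 such transcripts ran from -0.75 to 0.70, with an SD of 0.28, against an SD of 0.33 among the stretches of the block. The block thus held most of the range seen along the whole numbering.

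**Figure D2:**
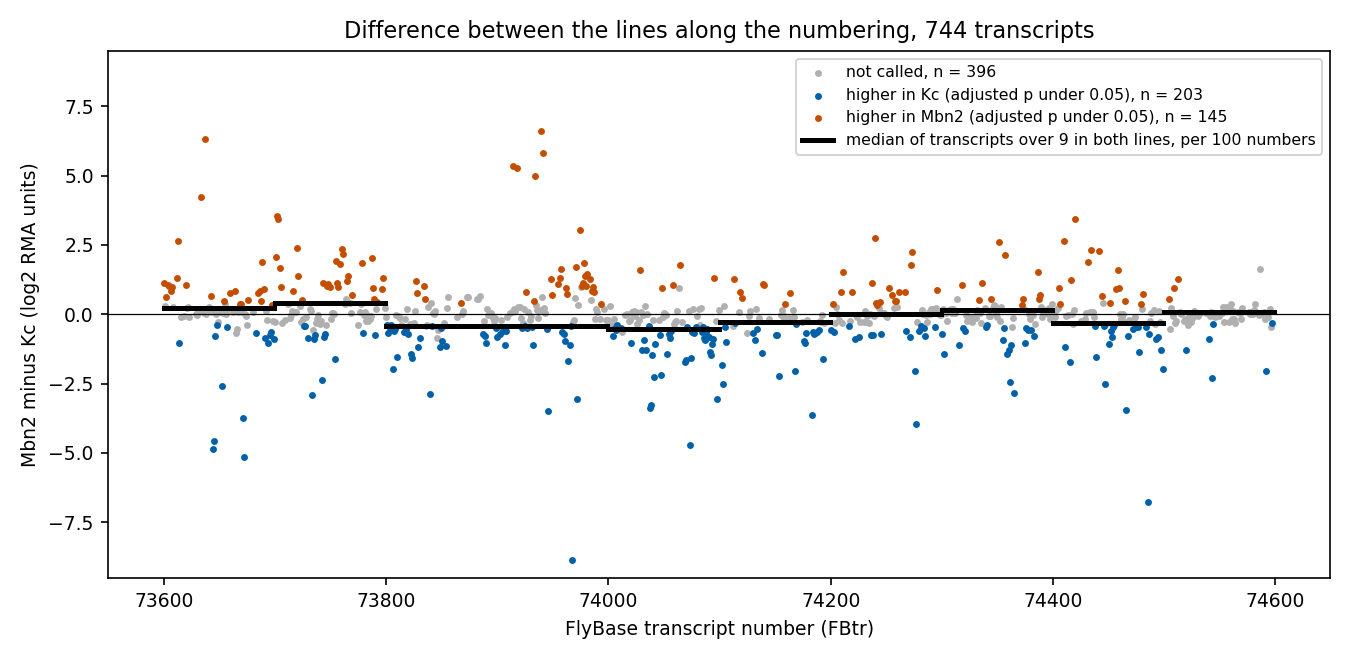
Difference between the lines (Mbn2 minus Kc, log2 RMA units) for each of the 744 transcripts against its FlyBase number, coloured by limma call; black bars give the median per 100 numbers of transcripts over 9 in both lines. The first 2 bars lie above 0, the next 4 between -0.54 and -0.29, and the last 4 between -0.31 and 0.14.

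The stretch just below the block, from 73500 to 73599, had a median of 0.70, the highest of the 195 stretches outside the block. The first 2 stretches of the block also lay towards Mbn2. In the first, which ends at 73699, the median was 0.23, and it was 0.15 to 0.25 when each Mbn2 array was set against each Kc array. In the second, which starts at 73700, it was 0.42 (0.46 to 0.50 over the array pairs, since medians of single pairs need not bracket that of the means), and 185 of the 195 other stretches were lower. In these 2 stretches together, 53 of 160 transcripts were higher in Mbn2 (33.1%, against 21.2% over all rows) and 27 were higher in Kc (16.9%, against 27%). That stretches were joined in this way was decided after their medians were seen, so the joined counts are a description.

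The next 4 stretches, from 73800 to 74199, lay towards Kc. Their medians were -0.41, -0.42, -0.54 and -0.29, and the lowest, from 74000 to 74099, was -0.62 to -0.54 over the array pairs. Only 6 of the 195 other stretches were lower than that. In the lowest, 41 of 86 transcripts were higher in Kc (47.7%) and 5 higher in Mbn2 (5.81%). Over the 4 stretches, 110 of 290 transcripts were higher in Kc (37.9%) and 44 higher in Mbn2 (15.2%). The shares over all rows were 27% and 21.2%. With differences measured from the median of all bright rows, the counts over the 4 stretches became 96 and 61, and the shares over all rows 22.9% and 25.3%. Leaving out any single array lowered the count towards Kc, as it did the share over all rows, and kept it above the count towards Mbn2.

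The last 4 stretches lay nearer to 0, apart from that from 74400 to 74499, which lay towards Kc. Their medians were 0.01, 0.14, -0.31 and 0.09. Of 294 transcripts 48 were called towards Mbn2 (16.3%, against 21.2% over all rows) and 66 towards Kc (22.4%, against 27%). From 74500 to the end, 33 of 69 transcripts were under 6 in both lines and only 9 were called. Of these, 3 were towards Mbn2 (4.35%) and 6 towards Kc (8.7%), against 21.2% and 27% over all rows. This was the stretch with the largest share of dim transcripts in the block, at 47.8%, against 29.3% over all rows. Whether that share had a part in the few calls was not tested.

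**Figure D3:**
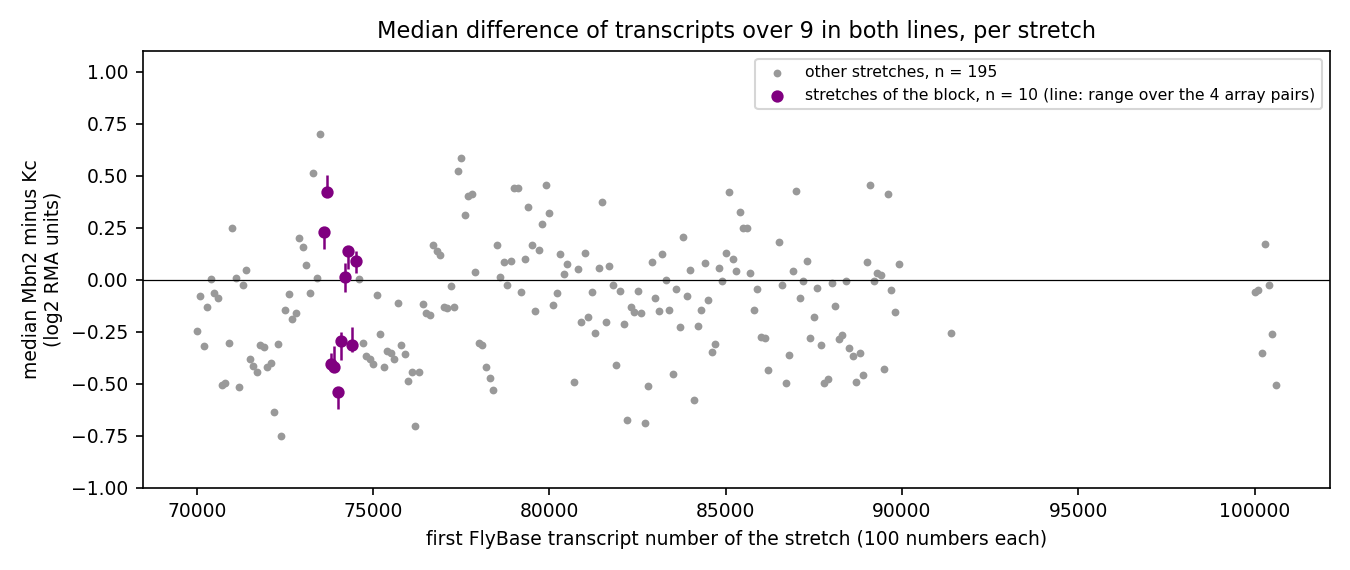
Median difference (Mbn2 minus Kc, log2 RMA units) of transcripts over 9 in both lines in stretches of 100 FlyBase numbers along the whole table; purple points are the 10 stretches of the block, with lines over the range of the 4 pairs of arrays and the plotted median, and grey points the 195 others. The purple points span from -0.54 to 0.42, inside the range of the grey points, -0.75 to 0.70.

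Over the whole block the median difference was small. For the 340 transcripts it was -0.18, and -0.17 to -0.13 when each Mbn2 array was set against each Kc array. The 4 pairs share arrays, so this range does not measure the spread between replicates. Against the block's -0.18, the 6358 other such rows had a median of -0.11. The gap between them, -0.07, was -0.05 without Kc replicate 2, -0.03 without Mbn2 replicate 1 and -0.01 over all rows without a limit on level. Among 22 blocks of the same width laid along the numbering, its median was the 7th from the lowest, in a range from -0.40 to 0.16. The 760 rows of the block just below had a median of 0.07 and the 826 rows just above one of -0.30. No test of these gaps between sets of transcripts was made, and none of them is called particular to the block.

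Transcripts next to each other in number moved together to a limited degree. Among transcripts over 9 in both lines, the differences of 163 pairs with consecutive numbers correlated at r = 0.38, against r = 0.36 for 2954 such pairs outside the block. At a gap of 2 numbers the correlation in the block was 0.16 (61 pairs), and for neighbouring rows 3 or more numbers apart it was 0.09 (115 pairs). Pairs share array, scaling and possibly sequence, so these values are descriptions. Of the 163 consecutive pairs, 16 had values within 0.3 of each other in all 4 arrays, and whether such rows belong to the same gene is not known. Leaving out the second row of these pairs, an alternative chosen after the data were seen, left 143 calls towards Mbn2 and 198 towards Kc.

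The longest unbroken run of calls in the block held 11 transcripts, FBtr0074084 to FBtr0074094, all higher in Kc. Their differences ran from -1.46 to -0.46 with a median of -0.85, and 3 of the 11 were at least 2-fold. The run spanned levels from the bright FBtr0074086, at 13.95 and 13.94 in the Kc arrays and 13.12 and 13.09 in the Mbn2 arrays, to FBtr0074093, at 6.68 and 6.12 in Kc and 5.34 in both Mbn2 arrays. In each of the 11 both Kc arrays lay above both Mbn2 arrays. The difference was widest for FBtr0074092, which read 10.89 and 10.92 in Kc and 9.53 and 9.35 in Mbn2 (2.76-fold). The run depended on its weakest members: FBtr0074085 lost the call without Kc replicate 1 (adjusted p = 0.0707), Kc replicate 2 (0.125) or Mbn2 replicate 2 (0.179), FBtr0074084 without Mbn2 replicate 2 (0.0516), and FBtr0074089 without Kc replicate 1 (0.067) or Mbn2 replicate 1 (0.0928). FBtr0074085 also lost it with a replicate block (0.0593) and with differences centred on bright rows (0.0902). Without moderation of the variances 6 of the 11 lost the call (FBtr0074084, FBtr0074085, FBtr0074087, FBtr0074088, FBtr0074089 and FBtr0074093), at adjusted p = 0.0876 to 0.188. The longest runs towards Kc elsewhere held 12 transcripts among the 2788 rows with lower numbers and 11 among the 12102 with higher numbers.

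A run of 7 transcripts higher in Mbn2, FBtr0073976 to FBtr0073983, lay at low to middle levels. Their means were 5.17 to 7.90 in Kc and 6.30 to 9.16 in Mbn2, with differences of 1.02 to 1.85, all of at least 2-fold. Kc replicate 1 lay above Kc replicate 2 in all 7, by 0.31 to 0.65, whereas this held for 55.6% of the block. The largest difference was that of FBtr0073978, at 7.58 and 7.04 in the Kc arrays and 8.84 and 9.48 in the Mbn2 arrays. FBtr0073980 lost the call without Mbn2 replicate 2 (limma adjusted p = 0.0622), and all 7 lost it without moderation of the variances, at adjusted p = 0.0654 to 0.186. The longest runs towards Mbn2 elsewhere held 7 transcripts among the 2788 rows with lower numbers and 14 among the 12102 with higher numbers. A further run of 6 in the block, FBtr0073755 to FBtr0073761, was brighter, with Kc means of 7.71 to 11.80 and Mbn2 means of 10.07 to 12.79. Its differences were 0.98 to 2.36 with limma adjusted p-values of 2.84e-05 to 0.00135, and it lies in the stretch with the highest median of the block.

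Another run, FBtr0073801 to FBtr0073808, held 7 transcripts higher in Kc by 0.38 to 1.99 log2 units, with limma adjusted p-values of 0.000142 to 0.0251. It opens the part of the numbering in which medians lay towards Kc. Within it FBtr0073806 stood apart, at 13.66 and 13.37 in the Kc arrays and 11.55 and 11.50 in the Mbn2 arrays. The other 6 differed by under 2-fold.

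The block also held transcripts that were bright in one line and dim in the other. A mean under 6 in Kc and over 8 in Mbn2 was found for 8 transcripts (1.08%, against 1.67% over all rows), and the reverse for 10 (1.34%, against 1.23%). All 18 passed the test, but the limits on level already require a large difference, so this adds nothing. Where a line was dim its true level is not known, so the difference is that between RMA values and no fold is given.

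The largest difference of the block was that of FBtr0073967, which read 14.18 and 14.07 in the Kc arrays and 5.17 and 5.38 in the Mbn2 arrays. This transcript was bright in both Kc arrays and dim in both Mbn2 arrays. The difference was -8.85 with a standard error of 0.12 (limma adjusted p = 2.53e-06). FBtr0074485 read 11.98 and 11.96 in Kc and 5.09 and 5.30 in Mbn2, a difference of -6.77 (standard error 0.12, limma adjusted p = 2.88e-06). Its 2 Kc arrays were only 0.02 apart.

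FBtr0073672 read 9.76 and 9.57 in Kc and 4.52 and 4.56 in Mbn2, and FBtr0073671, with the number before it, 8.63 and 8.12 in Kc and 4.83 and 4.47 in Mbn2. FBtr0073644 read 9.67 and 9.85 in Kc and 5.02 and 4.77 in Mbn2, and its neighbour FBtr0073645 differed in the same direction by -4.57. Each of these 4 was bright in Kc and dim in Mbn2. The rows of the second pair differed by at most 0.53 in any array, those of the first by up to 1.46, and whether each pair belongs to the same gene is not known. FBtr0074073 read 11.49 and 11.13 in Kc and 6.70 and 6.47 in Mbn2, a difference of -4.72, with Mbn2 above the limit for dim. The other 5 of the 12 largest differences towards Kc, FBtr0074277, FBtr0074183, FBtr0073946, FBtr0074466 and FBtr0074037, ran from -3.95 to -3.39.

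Towards Mbn2, 5 of the 12 largest differences lay between FBtr0073914 and FBtr0073941. FBtr0073939 read 5.08 and 4.99 in the Kc arrays and 11.50 and 11.81 in the Mbn2 arrays, a difference of 6.62 (standard error 0.14, limma adjusted p = 3.68e-06). FBtr0073941 read 4.65 and 4.51 in Kc and 10.32 and 10.47 in Mbn2, a difference of 5.82. Both were dim in Kc and well expressed in Mbn2. FBtr0073914 read 5.24 and 5.09 in Kc and 10.67 and 10.33 in Mbn2, a difference of 5.33. FBtr0073918 read 5.18 and 5.21 in Kc and 10.64 and 10.27 in Mbn2, a difference of 5.26. FBtr0073934 differed in the same way by 4.99, so that 5 of the 8 transcripts dim in Kc and bright in Mbn2 lay within 28 consecutive numbers.

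The transcripts between them did not share the switch. Of the 27 array rows from FBtr0073914 to FBtr0073941, 12 were dim in both lines, with differences of -0.21 to 0.61, of which none passed the limma test. Another 10 were neither switched nor dim in both, and of these 5 were higher in Kc, 2 were higher in Mbn2 and 3 did not pass the test, with differences of -1.10 to 0.79. Over all rows, with no such limit on level, 27% were higher in Kc and 21.2% higher in Mbn2. Among the 10 was FBtr0073922, at 12.93 in both Kc arrays and 12.44 and 12.45 in Mbn2, a difference of -0.48. FBtr0073922 and the others given from this span outside the largest differences were chosen after their values were seen. Groups of this kind also occurred elsewhere: of the 253 switched transcripts of this direction outside the block, 6 were the first of at least 5 within 28 numbers, and 153 had no other within the 27 numbers that followed.

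**Figure D4:**
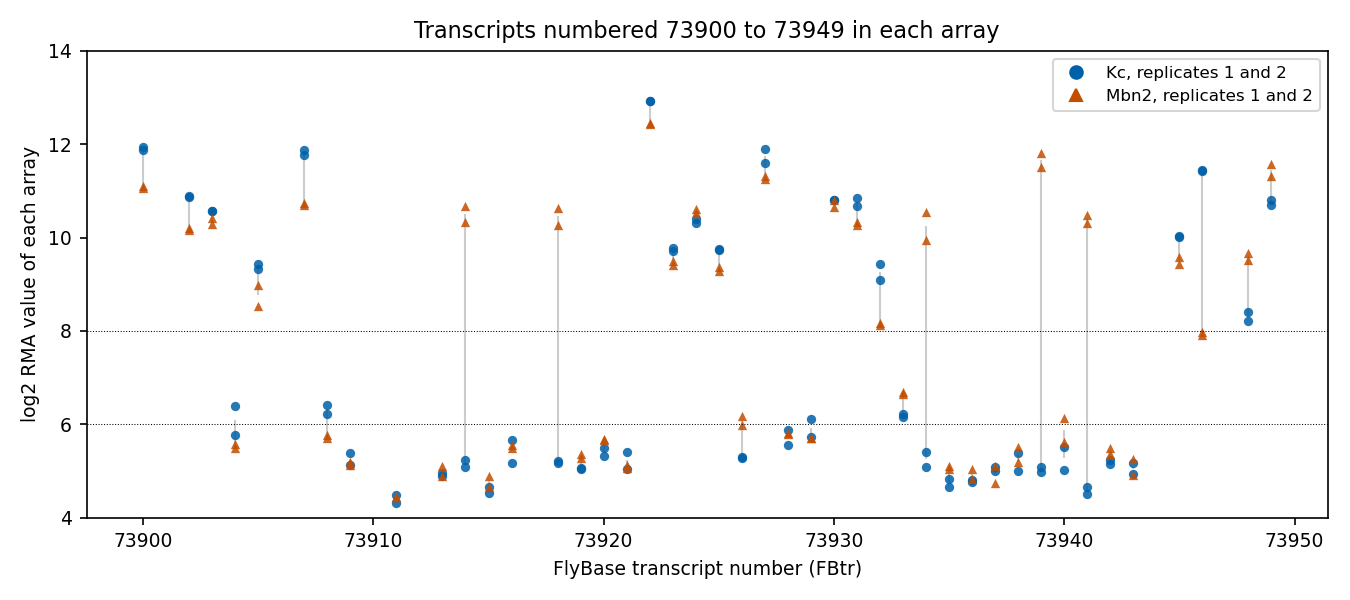
Log2 RMA value in each array of the 43 transcripts numbered 73900 to 73949, with Kc arrays as blue circles and Mbn2 arrays as orange triangles; the dotted lines mark 6 and 8 and grey lines join the line means. The 5 switched transcripts stand at 4.51 to 5.42 in Kc and 9.96 to 11.8 in Mbn2. Of all 43, 12 were called higher in Kc and 9 higher in Mbn2, where the shares over all rows were 27% and 21.2%.

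Outside that span, FBtr0073637 read 5.19 and 5.15 in Kc and 11.47 in both Mbn2 arrays, a difference of 6.30 (standard error 0.10, limma adjusted p = 2.83e-06). Nearby, FBtr0073633 differed by 4.24, from 4.89 in Kc to 9.13 in Mbn2. FBtr0074420 was the only switched transcript of this direction with a number above 74000; its difference was 3.42, and its arrays were the more spread, at 5.07 and 5.50 in Kc and 8.39 and 9.02 in Mbn2. The consecutive FBtr0073702 and FBtr0073703 were bright in both lines and higher in Mbn2 by 3.55 and 3.45, or 11.7-fold and 10.9-fold. Their values lay within 0.11 of each other in every array. FBtr0073974 and FBtr0074240 completed the 12 largest, at 3.05 and 2.77, and the latter lost the call without moderation of the variances (limma adjusted p = 0.0788).

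**Figure D5:**
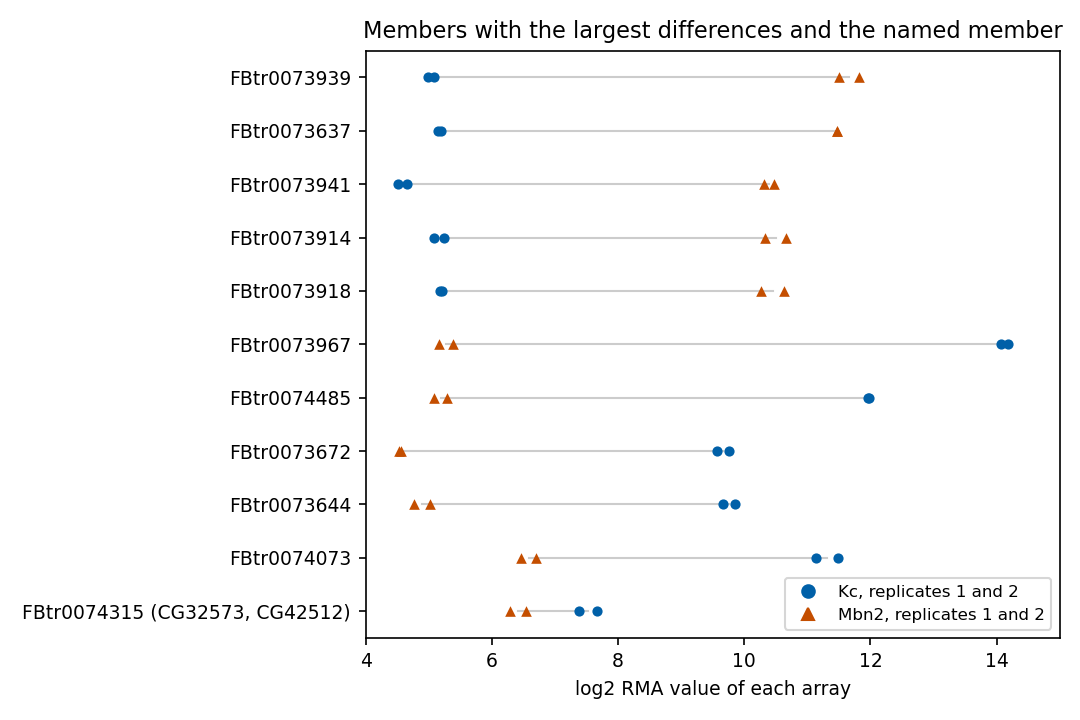
Log2 RMA value in each array for the 5 transcripts with the largest difference in each direction and for FBtr0074315, with Kc as blue circles, Mbn2 as orange triangles and a grey line between the line means. Replicates lie closer together than the lines do. The lines do not overlap in any of the 11 transcripts, which for those with the largest differences was a condition of their choice.

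Among transcripts over 9 in both lines, where a fold change can be read, 77 of 340 were called towards Mbn2 and 124 towards Kc, or 22.6% and 36.5%, against 24.3% and 34.9% of such rows over the table. FBtr0074351 changed the most towards Mbn2, from 9.61 and 9.62 in the Kc arrays to 12.11 and 12.31 in the Mbn2 arrays, or 6.06-fold (difference 2.60, standard error 0.11, limma adjusted p = 2.92e-05). FBtr0073720, FBtr0074441, FBtr0074273, FBtr0073761 and FBtr0073701 followed at 4.23-fold to 5.19-fold. In the other direction FBtr0074447 was 5.65-fold higher in Kc, at 12.84 and 13.07 in Kc and 10.38 and 10.54 in Mbn2 (difference -2.50, standard error 0.13, limma adjusted p = 5.46e-05). Replicates were not equally close: FBtr0074273 read 9.77 and 10.17 in the Kc arrays, and FBtr0073761 read 11.93 and 12.23 in the Mbn2 arrays. Towards Kc, FBtr0074276, FBtr0073806, FBtr0074415, FBtr0073964 and FBtr0074074 came after FBtr0074447, at up to 4.09-fold. Of these, FBtr0073964 had the widest spread in Mbn2, at 9.92 and 10.76, and its adjusted p was 0.00426, or 0.127 without moderation of the variances.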

How the data were processed

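What the authors deposited is 1 log2 value for each transcript on each array, produced by RMA per the submitters' processing notes. No source used here gives its settings, the annotation release or a genome build. Each gene has 12 probes of 60 nucleotides, in duplicate, per the design text. Array medians of 8.53 to 8.62 and near-equal quantiles are what a quantile step gives, which removes differences in total signal. Precision is limited by the number of arrays, 4.

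A linear model per row was fitted with limma (version 3.58.1, R 4.3.3; lmFit and eBayes, two-sided) to all 15634 rows and 4 arrays, with line as the single term. Differences are Mbn2 minus Kc. Benjamini-Hochberg adjustment ran over all rows. The test was checked on simulated data. The members, limits and lists were chosen with earlier results of these data known. Transcripts were named by rule: those with a symbol, the 12 largest called differences per direction, the 6 largest over 9 in both lines, the 4 highest levels, the longest runs, and the rows at the edges. Switched transcripts, further runs and joined stretches were chosen after their values were seen. Symbols came from RefSeq's table, which paired 44 of the array's identifiers. No sequence is shown, since no table used here holds one for these identifiers. Alternatives tried were the replicate number as a block, an intensity trend, variances without moderation, another centre, a second quantile step, a filter on level, other limits and stretch lengths, and single arrays left out.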

Additional observations from a re-analysis of the deposited data

How the results depend on the processing

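No sign changed under any alternative run for FBtr0074315 or for the 61 other transcripts tallied below. However, the arrays of the lines did not overlap for any call, so leaving out an array could not turn one. The edge row FBtr0074602, outside the block and not tallied, had overlapping arrays, at 9.24 and 8.99 in Kc and 9.16 and 9.10 in Mbn2. The sign of its difference depends on the array left out. The lean of the block did turn, as did that of the whole table. With differences centred on bright rows, calls towards Mbn2 and Kc were 177 and 174 (23.8% and 23.4%), against 25.3% and 22.9% over all rows. Those of at least 2-fold were 90 and 61 in the block, without a share over all rows, so no lean is read from them. Without moderation of the variances the block held 77 calls towards Mbn2 (10.3%) and 106 towards Kc (14.2%), against 11.3% and 13.6% over all rows. The difference of FBtr0074315, -1.10, was then no longer called. With rows below the median level left out, 28.0% of the block's remaining rows were called towards Mbn2 and 44.8% towards Kc. The shares over all remaining rows were 30.5% and 41.3%. Of the block's calls, 45 towards Mbn2 and 44 towards Kc then reached 2-fold, since that filter removes rows of low mean. No share over all rows is given for the 2-fold counts. Fits with single arrays left out take the lone array to vary as the others do. They gave differences of -1.25 to -0.96 for FBtr0074315. The median difference of the 340 bright transcripts, -0.18, was -0.17 to -0.15 without single arrays, -0.17 with a limit of 8, -0.14 with a limit of 10, -0.0567 over all rows and -0.23 with both edges moved inwards by 100 numbers. Its gap to the other rows, -0.07, was -0.0634 to -0.0344, -0.0487, -0.0422, -0.0112 and -0.12 in the same order. The cause of these shifts was not tested. The gap between the lowest and highest stretch median, 0.96, was 1.14 with stretches of 50 numbers and 0.75 with stretches of 200. Over all rows, the replicate deviations of the lines correlated at r = -0.05. This value cannot show whether arrays with the same replicate number were handled together. With a replicate block there were 138 calls towards Mbn2 (18.5%) and 194 towards Kc (26.1%), against 20.3% and 25.3% over all rows. Of 584 alternative values of 61 other transcripts given here, 32 no longer passed, 16 of these under the unmoderated fit, and no sign turned. Signal over background is not given, which limits what can be said of dim transcripts.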
